A study of Mus musculus with 30 samples.

Results

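The ventral prostate (VP) of male C57BL/6 mice fed lard was compared with that of mice fed linseed oil after 12 weeks on the diets. The lard diet, labelled Por Fat (PF), is rich in saturated fatty acids, and the Linseed oil (LO) diet is rich in the n-3 fatty acid alpha-linolenic acid. The 10 mice were chosen by their diet and time labels alone, 5 PF and 5 LO, from a series of 30 mice on 3 diets and at 2 time points, 12 and 32 weeks. The third diet at 12 weeks, soybean oil (SO, 5 mice), entered the same statistical fit and is given where it places PF and LO. The diets had the same, normal content of fat and energy and differed in the source of the fat. No other treatment or genetic change is labelled. Each library carries the number of one mouse, 1 to 5 within a diet, and no source used here says whether mice shared a cage or litter.

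Dietary fatty acids reach a gland by several known routes. Saturated and polyunsaturated fatty acids enter membranes, feed oxidation in mitochondria and peroxisomes, and act as ligands of nuclear receptors such as the peroxisome proliferator-activated receptors (PPARs), while n-3 and n-6 fatty acids are also precursors of eicosanoids. The VP is a secretory epithelium under androgen control, with a large endoplasmic reticulum (ER) and Golgi apparatus, set in a stroma of smooth muscle, fibroblasts, vessels and immune cells. Like most tissues it runs a circadian clock, in which BMAL1 (the product of Arntl) with CLOCK or NPAS2 drives the Per and Cry genes, whose products repress that drive.

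Total counts on genes lay between 29596273 and 39239920 in the LO mice and between 30402047 and 40763802 in the PF mice, with the ranges overlapping, and 15873 genes passed the filter on low counts. The labelled tissue bore its markers: Sbp, the spermine-binding protein of the VP, lay between 128200 and 254800 CPM in the 10 mice. CPM values here are counts relative to the library total, scaled by TMM, and are not corrected for gene length, so they are compared between mice and not between genes. Several mice stood apart in ways the diets do not define. Tgm4, the transglutaminase of the coagulating gland (the anterior prostate), was at 36.4, 5.27, 5.68, 1250 and 4.46 CPM in LO mice 1 to 5 and at 2.86, 4.38, 4.28, 4.1 and 138 CPM in PF mice 1 to 5. LO mouse 4 and PF mouse 5 were far above the others on their diet. The other 9 genes of that marker list, which belong to the seminal vesicle, among them Svs2 and Svs5, were at or near 0 in all 10 mice. LO mouse 2 had little Pbsn (probasin, an androgen-driven secretory gene), with 118.7 CPM against 2458 to 4266 CPM in the other LO mice. In bulk tissue a change in the number of cells of a type and a change in RNA per cell cannot be told apart, and this holds for every result below.

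Few genes separated the diets, and most of those were slightly lower in PF. The quasi-likelihood test of edgeR called none of the 15873 genes at an adjusted p under 0.05 (percent called 0; smallest adjusted p 0.241), while 1466 genes (9.24%) were at an unadjusted p under 0.05, of which 782 (4.93%) were lower and 684 (4.31%) higher in PF. That split, 53.3% lower, moved to 70.3% lower when counts were scaled by library totals alone, which shifted the median log2 fold change of all genes to -0.03. The Wald test of DESeq2, the tool the study itself used, called 75 of 14379 genes (0.522%) at an adjusted p under 0.05, 56 lower in PF (0.389%) and 19 higher (0.132%). The word "called" below means called by DESeq2, fold changes and SEs are those of edgeR, and a value in parentheses after a gene name is its log2 fold change ± SE, PF minus LO. When 1 mouse was left out, the number of calls ran from 18 without PF mouse 2 and 19 without PF mouse 3 to 186 without PF mouse 5. Without respect to any p, the 5 PF values lay wholly below the 5 LO values in 185 genes (1.17%) and wholly above them in 43 genes (0.271%). Of the 56 genes called lower, 50 had PF values wholly below the LO values, and of the 18 genes called higher that edgeR also fitted, 8 had PF values wholly above.

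The genes called lower and those called higher differed in expression level and in the size of the change. A weakly expressed gene needs a larger change to be called, so these traits are not independent. Those called lower were well expressed (median of the mean log2 CPM 5.52) and 55 of 56 code for proteins, but the differences were small, with log2 fold changes from -1.07 to -0.18 and a median of -0.32, and 37 of them differed by less than 1.3-fold. Those called higher were weakly expressed (median of the mean log2 CPM 1.91), with log2 fold changes from 0.39 to 4.67 and a median of 0.80, and 8 of the 18 differed by more than 2-fold. The median over all genes tested was -0.00018, with 50.1% of them below 0 and 49.9% above. The SO mean lay between the PF and LO means for all 56 genes called lower and for 10 of the 19 called higher, against 40.7% of all tested genes. Genes picked for a wide gap between PF and LO leave a wide interval for the SO mean, so nothing further is read from that share.

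**Figure D1:**
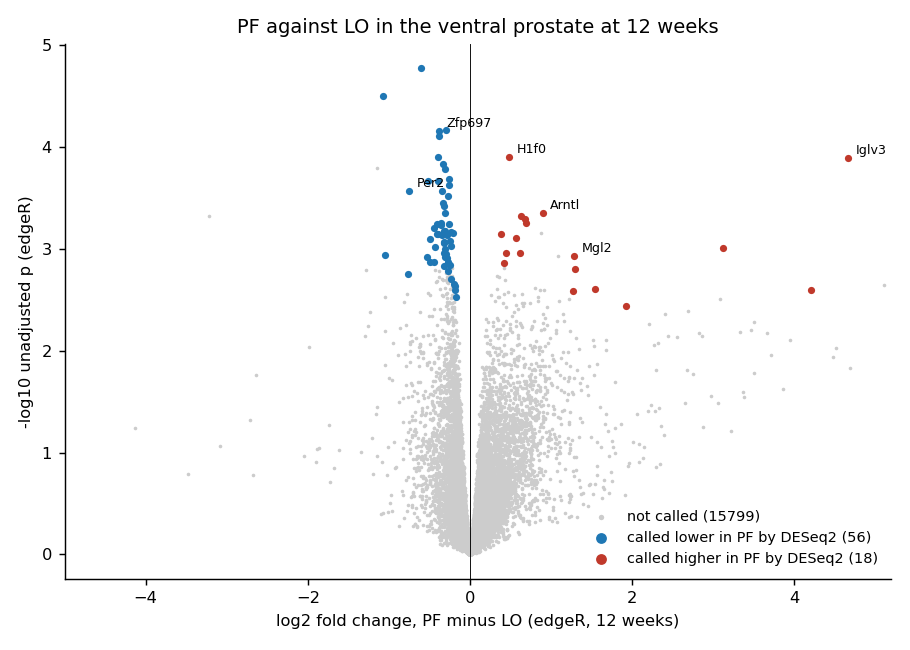
Each point is a gene tested at 12 weeks, with the edgeR log2 fold change (PF minus LO) on the x axis and -log10 of its unadjusted edgeR p on the y axis; 3 genes lie outside the plotted range. The 56 genes called lower in PF by DESeq2 (blue) sit close to 0, with a median of -0.32, while the 18 called higher (red) have a median of 0.80 and reach 4.67.

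Among the 23 gene lists, which were chosen with earlier results of these data known, the circadian clock held the most called genes. Of 26 clock genes tested, 18 were lower and 8 higher in PF, 8 of the lower and 3 of the higher at an unadjusted p under 0.05 (42.3% of the list against 9.24% of all genes). Of the 26, 4 were called, 3 lower, Per2 and Per3 among them, and Arntl higher, where 75 of all 14379 genes (0.522%) were called. The list had a median log2 fold change of -0.13.

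Per2 and Per3 encode repressors of the clock's driving factors. Per2 (chr1:91415982-91459324, minus strand on GRCm38) was at 56.8, 44.4, 43.4, 52.1 and 39.8 CPM in LO and at 34, 23.9, 20.4, 28.3 and 34.1 CPM in PF mice 1 to 5. No PF mouse reached the lowest LO mouse, and the SO mice were at 38.1 ± 7.2 CPM (SD, n = 5). Its log2 fold change was -0.75 ± 0.16 (SE; DESeq2 adjusted p = 0.00661), a level 40.5% lower. Per3 (chr4:151003652-151044665, minus strand) was at 88.2, 80.3, 96.9, 101 and 93.5 CPM in LO and at 79.2, 62.2, 52.4, 79.7 and 65.8 CPM in PF, where PF mouse 4, the highest of its diet, lay only just below LO mouse 2, the lowest of its own. Its log2 fold change was -0.44 ± 0.10 (SE; DESeq2 adjusted p = 0.0253). Per1, the third period gene, overlapped between the diets (55.3, 47.9, 53.1, 62.2 and 100.4 CPM in LO and 43.1, 42.4, 35.4, 74.7 and 69.9 CPM in PF) and did not pass the test. Per1, Clock and Nr1d1 lie outside the naming rule and were chosen after their values were seen.

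Arntl moved the other way. Its transcript (chr7:113207465-113314126, plus strand), which encodes BMAL1, was at 1.98, 4.08, 2.12, 2.94 and 3.27 CPM in LO and at 3.79, 6.87, 6.34, 4.47 and 5.42 CPM in PF mice 1 to 5. PF mouse 1 lay within the LO range and the other 4 PF mice lay above it. The level was 1.87-fold that of LO (log2 fold change 0.90 ± 0.20, SE; DESeq2 adjusted p = 0.0103). Npas2, the partner of BMAL1 that can stand in for CLOCK, was at 2.29, 1.4, 1.03, 2.24 and 2.29 CPM in LO and at 4.8, 3.24, 3.51, 2.04 and 3.36 CPM in PF, with a log2 fold change of 0.87 ± 0.24 (SE) that missed the threshold (DESeq2 adjusted p = 0.059). Clock itself (-0.06 ± 0.15) and Nr1d1, which encodes the repressor REV-ERB alpha (0.32 ± 0.24), had DESeq2 adjusted p of 0.968 and 0.724. Tef, a transcription factor that binds D-box elements, was at 252, 241, 267, 279 and 264 CPM in LO and at 206, 179, 162, 245 and 232 CPM in PF (-0.35 ± 0.10, SE; DESeq2 adjusted p = 0.0967), and Cry1, a repressor that pairs with the period proteins, was at 22.7, 27.8, 23.3, 20.4 and 19.5 and 14.4, 19.5, 19.8, 15.5 and 20.6 CPM (-0.34 ± 0.13, SE; DESeq2 adjusted p = 0.298). Neither was called, and in both genes the diets overlapped. The other clock genes at an unadjusted p under 0.05, Bhlhe41, Hlf, Nr1d2 and Timeless, were not called either.

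**Figure D2:**
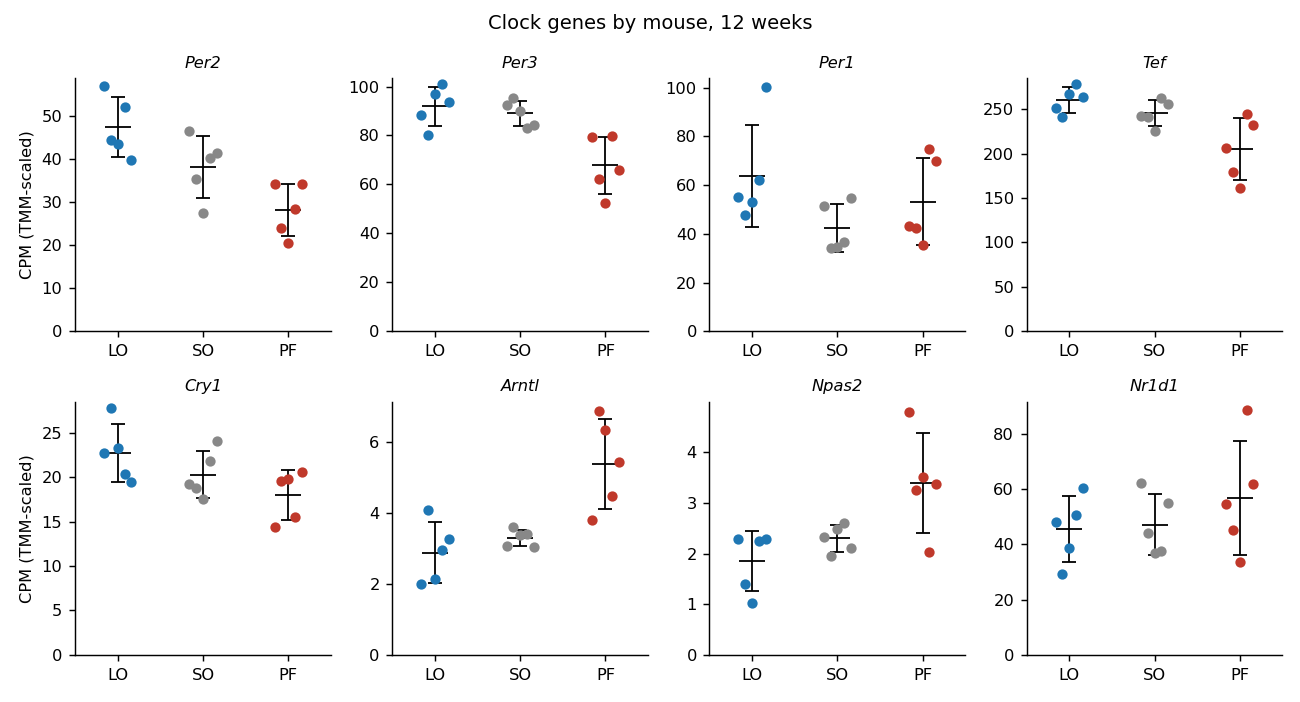
CPM (TMM-scaled, linear axis from 0) of 8 clock genes in each mouse of the LO, SO and PF diets at 12 weeks; bars are the mean ± SD of 5 mice. All PF points are below all LO points for Per2 and Per3, the PF points of Arntl and Npas2 lie mostly above those of LO, and the diets overlap for Per1 and Nr1d1.

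Clock genes are controlled through short promoter motifs. RefSeq promoter windows (GRCm38.p6) were looked up gene by gene for Per3, Cry1, Tef, Arntl and Npas2, and not for the other clock genes. The E-box (CACGTG) is bound by BMAL1 with CLOCK or NPAS2, and the D-box (TTATGTAA) by TEF and its relatives. Both strands were searched in windows from 250 bases before to 50 bases after the start. The bases before the start of Per3 (chr4:151044666-151044915, minus strand) hold 2 D-boxes, whose first bases lie 205 and 158 bases upstream, and Cry1 (chr10:85185085-85185144, minus strand) and Tef (chr15:81802516-81802575, plus strand) hold 1 E-box each, 60 and 127 bases upstream. A second window of Tef (chr15:81811164-81811463, plus strand) holds an E-box at position -138 from its start and is not shown. The windows of Arntl and Npas2 hold neither an E-box nor a D-box. The capitals mark the motif.
Per3, D-boxes: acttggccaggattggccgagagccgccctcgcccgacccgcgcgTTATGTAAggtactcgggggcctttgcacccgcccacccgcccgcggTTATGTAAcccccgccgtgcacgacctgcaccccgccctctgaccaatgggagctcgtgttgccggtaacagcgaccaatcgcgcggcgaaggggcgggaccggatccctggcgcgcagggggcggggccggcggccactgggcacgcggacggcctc
Cry1, E-box: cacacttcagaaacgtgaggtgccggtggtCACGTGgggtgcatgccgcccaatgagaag
Tef, E-box: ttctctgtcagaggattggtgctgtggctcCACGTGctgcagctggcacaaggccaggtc
Of all 32851 windows, 7.15% held an E-box and 0.938% a D-box, and no sequence is shown for Per2. The genes called lower matched 61 windows of 46 genes, of which 6 windows held an E-box (9.84%; those of Dnajb9, Cdk7, Pdxk, Ndel1, Ccar1 and Zfp791) and 2 a D-box (3.28%; those of Per3 and Baz1b), and the 17 windows of 13 genes called higher held neither.

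The clock calls rested on some mice more than others. Of the 10 fits that left out 1 mouse, Per2 was called in 9, losing its call without PF mouse 2, Arntl in 7, losing it without LO mouse 3, PF mouse 2 or PF mouse 3, and Per3 in 5, losing it without LO mouse 3, 4 or 5 or PF mouse 2 or 3. The time of day at which the tissues were taken is not given in the sources used here, and its part in these differences was not tested.

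Baz1b, a subunit of chromatin remodelling complexes, was at 123, 129.6, 124, 132 and 129 CPM in LO and at 99.4, 112, 105, 95.3 and 106 CPM in PF (-0.30 ± 0.06, SE; DESeq2 adjusted p = 0.000238). The spread within each diet was small enough that a difference of 18.9% left a gap between them. Srrm2, a scaffold of nuclear speckles and of the spliceosome, was at 1040, 1028, 1250, 1077 and 1146 CPM in LO and at 996, 780.5, 773, 840 and 826 CPM in PF (-0.39 ± 0.08, SE; DESeq2 adjusted p = 0.00135). Here PF mouse 1, at 996 CPM, lay just under the lowest LO mouse and the other PF mice were well below. Alkbh5, which removes N6-methyladenosine from RNA, was at 120.4, 127, 115, 123 and 135 CPM in LO and at 94.7, 106, 108, 104 and 106 CPM in PF (-0.26 ± 0.05, SE; DESeq2 adjusted p = 0.00258). Eif4ebp2, a repressor of cap-dependent translation, was at 144, 159.8, 174, 139 and 148 and 126, 122, 118, 121 and 123 CPM (-0.32 ± 0.07, SE; DESeq2 adjusted p = 0.0114). The zinc finger genes Zfp697 (-0.38 ± 0.07), Hivep2 (-0.35 ± 0.07) and Zfp142 (-0.33 ± 0.07), and Senp5, a protease that removes SUMO (-0.40 ± 0.08), were called lower as well. Each gene of this group had PF values wholly below those of LO.

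Srrm2 was the 1 called member of a list of 32 splicing regulators and nuclear-retained RNAs. Of that list 26 were lower and 6 higher in PF, 5 of the lower and none of the higher at an unadjusted p under 0.05 (15.6% of the list, against 9.24% of all genes), with a median log2 fold change of -0.05. The count of 5 fell to 2 without LO mouse 2, LO mouse 4 or PF mouse 1. Clk4, a kinase of splicing factors (-0.21 ± 0.06, SE), Ccnl2 (-0.20 ± 0.08) and the RNA helicase Ddx5 (-0.13 ± 0.06) came next and were not called.

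Of the other genes called lower, Golgb1, which encodes the Golgi tether giantin, was at 447, 527, 536, 447 and 468 CPM in LO and at 384, 387, 389, 382 and 387 CPM in PF. The PF mice lay close to each other and below every LO mouse (-0.33 ± 0.07, SE; DESeq2 adjusted p = 0.00135). Stk35, a serine/threonine kinase gene, was at 33.1, 41.4, 35.6, 32.6 and 31.9 CPM in LO and at 26.6, 26.1, 25.9, 28.9 and 26.5 CPM in PF (-0.38 ± 0.07, SE; DESeq2 adjusted p = 0.00198). Cflar, an inhibitor of caspase-8 in death receptor signalling, was at 104, 109.8, 109, 104 and 114 and 88, 93.2, 81.4, 81.8 and 89.3 CPM (-0.31 ± 0.06, SE; DESeq2 adjusted p = 0.00361). Hs3st3b1, a sulfotransferase that modifies heparan sulfate, was at 12.9, 12.7, 13.6, 11.3 and 14.9 and 8.88, 8.03, 7.72, 10.7 and 10.5 CPM (-0.51 ± 0.11, SE; DESeq2 adjusted p = 0.00655). All 5 PF mice were below the LO mice for these 3 genes. Fam120b, described as a coactivator of PPAR gamma, was at 52.5, 57.5, 56.6, 51.6 and 52.3 and 43.7, 44.8, 43.9, 49.2 and 44 CPM (-0.26 ± 0.05, SE; DESeq2 adjusted p = 0.00655).

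Leaving out each of the 10 mice in turn kept 11 genes called lower in every fit, among them Baz1b, Srrm2, Golgb1, Stk35, Cflar, Alkbh5, Senp5 and Zfp697 of the genes named so far and 2 genes without an established name (0610030E20Rik and Gm9899, outside the naming rule). Of the genes named above, Hivep2 and Hs3st3b1 were called in 9 fits, Fam120b in 8, Zfp142 in 7 and Eif4ebp2 in 6, and the fits that lost them were among those without LO mouse 2 or 3 or PF mouse 2 or 3. H1f0 was the 1 gene called higher in every fit.

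H1f0, the linker histone H1.0, was called higher in PF. It was at 70.0, 81.8, 76, 60.2 and 81.8 CPM in LO and at 92.6, 115, 105, 108 and 97 CPM in PF mice 1 to 5, with no overlap, and the SO mice were at 94.8 ± 10.3 CPM (SD, n = 5). The log2 fold change was 0.48 ± 0.10 (SE; DESeq2 adjusted p = 0.00448). Cdkn1a, which encodes the cell cycle inhibitor p21, was at 5.35, 5.36, 5.82, 5.03 and 4.58 CPM in LO and at 8.35, 9.84, 8.77, 5.83 and 7.78 CPM in PF, 1.55-fold the LO level (0.63 ± 0.14, SE; DESeq2 adjusted p = 0.0128). The 5 PF mice lay above the 5 LO mice, PF mouse 4 by a small margin. Lrrc8d, a subunit of volume-regulated anion channels, was at 23.4, 29.1, 26.7, 25 and 27.8 and 32.9, 37.7, 37.7, 32.8 and 31.5 CPM (0.39 ± 0.09, SE; DESeq2 adjusted p = 0.027). Dusp6, a phosphatase that turns off ERK, was at 16, 12.1, 11.6, 14.5 and 16.6 and 21.2, 21.5, 18.6, 15.9 and 19.6 CPM (0.45 ± 0.11, SE; DESeq2 adjusted p = 0.0427), where only PF mouse 4 overlapped with LO. The weakly expressed Dyrk3, a kinase gene (0.69 ± 0.16), Mamstr, a coactivator of MEF2 (0.67 ± 0.15), Msl3l2 (0.57 ± 0.14), Sat2, a relative of the spermidine acetyltransferase (0.42 ± 0.11), and Tnfaip2, induced by tumor necrosis factor (0.61 ± 0.15), were also called, and Sat2 alone of these 5 overlapped between the diets. Without PF mouse 2, and again without PF mouse 3, H1f0 was the 1 gene of this paragraph that stayed called, and the others were called in 2 to 7 of the 10 fits.

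Among the other genes called higher are genes of immune cells. Mgl2, a lectin of macrophages and dendritic cells, was at 4.63, 2.56, 4.14, 4.61 and 5.97 CPM in LO and at 11, 10.3, 20.6, 6.48 and 5.22 CPM in PF mice 1 to 5. PF mouse 5 fell within the LO range (1.29 ± 0.32, SE; DESeq2 adjusted p = 0.02). Iglv3, an immunoglobulin lambda variable segment, was at 0.143, 0.0305, 0.137, 0.151 and 0.203 CPM in LO and at 3.13, 2.54, 10.7, 0.392 and 0.722 CPM in PF (4.67 ± 0.92, SE; DESeq2 adjusted p = 0.00188). All 5 PF mice were above the LO mice, which were close to 0. Serpina3f, a serine protease inhibitor, was at 0.167, 0.0305, 0.205, 0.453 and 0.116 and 0.416, 2.03, 5.5, 0.68 and 0.25 CPM (3.13 ± 0.77, SE; DESeq2 adjusted p = 0.0114), with PF mouse 3 highest and PF mice 1 and 5 within the LO range. Ms4a6d, a macrophage membrane gene (1.3 ± 0.34), and AI662270 (1.55 ± 0.43) were called with PF mice 1 to 3 above the LO mice. Each of these 5 genes lost its call without PF mouse 2 and without PF mouse 3. The remaining 4 called genes were 3 immunoglobulin kappa variable segments, whose near-identical copies make their counts uncertain, and Csf2rb2, a cytokine receptor subunit. These 4 were named after their values were seen.

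Most members of the immune gene lists were higher in PF, and none was called. Of 10 genes for antigen presentation on MHC class II, all 10 were higher in PF, 7 at an unadjusted p under 0.05 (70% of the list, against 9.24% of all genes), with a median log2 fold change of 0.77. Cd74, the invariant chain, was at 110.2, 66.7, 93.9, 175 and 128 CPM in LO and at 164, 236, 285, 213 and 93.4 CPM in PF (0.79 ± 0.26, SE; DESeq2 adjusted p = 0.155), and H2-Ab1, a class II chain, at 49.1, 20.7, 31.5, 63.3 and 49.6 and 74.3, 89, 94.6, 82.8 and 36.5 CPM (0.82 ± 0.27, SE; DESeq2 adjusted p = 0.146). PF mouse 5 lay inside the LO range for both, and LO mouse 4 was the highest LO mouse. Of 14 chemokine receptors 12 were higher (7 at an unadjusted p under 0.05, or 50% of the list; median 0.53), of 27 chemokines 23 (5 at that p, or 18.5%; median 0.37) and of 12 Toll-like receptors 11 (2 at that p, or 16.7%; median 0.39), and none of the lower members of these lists reached that p. These counts rested on single mice. That of the receptors fell to 2 without LO mouse 3, PF mouse 2 or PF mouse 3 and to 3 without LO mouse 1, LO mouse 2 or PF mouse 1. That of the chemokines fell to 3 without LO mouse 1, 2 or 3 or PF mouse 1. That of the Toll-like receptors fell to 0 without PF mouse 3 and rose to 5 without LO mouse 4 or PF mouse 5. The median of the chemokines ran from 0.21 without PF mouse 1 to 0.58 without LO mouse 4. Ccl8, a chemoattractant of monocytes and eosinophils, spanned 6.36, 14.8, 42.2, 5.12 and 1.64 CPM in PF against 3.34, 0.609, 2.6, 5.38 and 3.16 CPM in LO (2.20 ± 0.68, SE; DESeq2 adjusted p = 0.13), and Ccl6 (1.23 ± 0.39) and Ccl9 (1.16 ± 0.36) were above the LO mice in PF mice 1 to 3 and within the LO range in PF mice 4 and 5. Among receptors, Ackr4 (0.52 ± 0.16) and Ackr1 (0.97 ± 0.35), which bind chemokines without signalling through G proteins, were at an unadjusted p under 0.05, as were Tlr13 (0.74 ± 0.28) and Tlr1 (0.93 ± 0.37) among Toll-like receptors.

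Markers of immune cells stood higher beside these lists, and their part in the result was not tested. Of the 12 macrophage markers 11 were higher in PF (median log2 fold change 0.53), of the 10 T cell markers 9 (median 0.53), of the 8 dendritic cell markers 7 (median 0.65) and of the 7 B and plasma cell markers all 7 (median 1.27). The B and plasma cell median was 0.66 without PF mouse 2, 0.84 without PF mouse 3 and 2.38 without LO mouse 4. The T cell median was 1.01 without LO mouse 4. The summed CPM of the B and plasma cell markers was 126, 60.6, 129, 136 and 135 in LO and 177, 488, 574, 111 and 101 in PF mice 1 to 5, so PF mice 1 to 3 stood above every LO mouse and PF mice 4 and 5 did not. Jchain, made by plasma cells, reached 334.6 and 412.7 CPM in PF mice 2 and 3 and no more than 50.4 CPM in the other 8, and like the marker lists it was chosen outside the naming rule. Fibroblast markers were higher in 9 of 9 (median 0.38) and 17 of 23 collagens were higher (median 0.25; 6 at an unadjusted p under 0.05, or 26.1% of the list), among them Col3a1 of the stroma at 178, 103, 124, 125 and 139 CPM in LO and 222, 245, 422, 146 and 162 CPM in PF (0.84 ± 0.24, SE; DESeq2 adjusted p = 0.059). The fibroblast median was 0.22 without PF mouse 1 and 0.25 without PF mouse 3, while the collagen median was 0.12 without PF mouse 1 and 0.45 without LO mouse 1. The count of 6 collagens was 11 without LO mouse 1 and 3 without LO mouse 3 or 4. All 10 smooth muscle markers were lower (median -0.19; 1 at an unadjusted p under 0.05, or 6 without PF mouse 1, where the median was -0.37), and markers of luminal epithelium were near equality (median 0.04).

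The immune difference was larger without LO mouse 4 and PF mouse 5, the mice with the highest Tgm4. Interferon-stimulated genes summed to 476, 516, 581, 2284 and 659 CPM in LO and to 931, 1283, 820.5, 1540 and 461 CPM in PF mice 1 to 5. LO mouse 4 was thus the highest of all 10 and PF mouse 5 the lowest, and with all mice 21 of 30 such genes were higher in PF, none at an unadjusted p under 0.05 (median 0.17). Without LO mouse 4 alone 24 were at that p and 2 were called (median 1.08), and without PF mouse 4 alone the median was -0.02. Without both LO mouse 4 and PF mouse 5, an alternative added after the data had been seen, 29 of the 30 were higher, 28 at an unadjusted p under 0.05 and 21 called (median 1.29). In the same fit all 10 MHC class II genes were called higher (median 1.17), edgeR called 22 genes (0.138%), 21 of them higher, and DESeq2 called 460 genes, 99 lower (0.566%) and 361 higher (2.06%). More genes were thus called lower than higher with all 10 mice and fewer without these 2, and 44 of the 56 genes called lower and 17 of the 19 called higher were called in both fits. For MHC class II genes too, LO mouse 4 had the highest LO sum (472.3 CPM) and PF mouse 5 the lowest PF sum (257.9 CPM). Leaving out these 2 mice thus had to widen the difference in the summed levels of both lists. The counts without them are a description and not support for an immune difference. The part of the coagulating gland RNA in these differences was not tested.

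**Figure D3:**
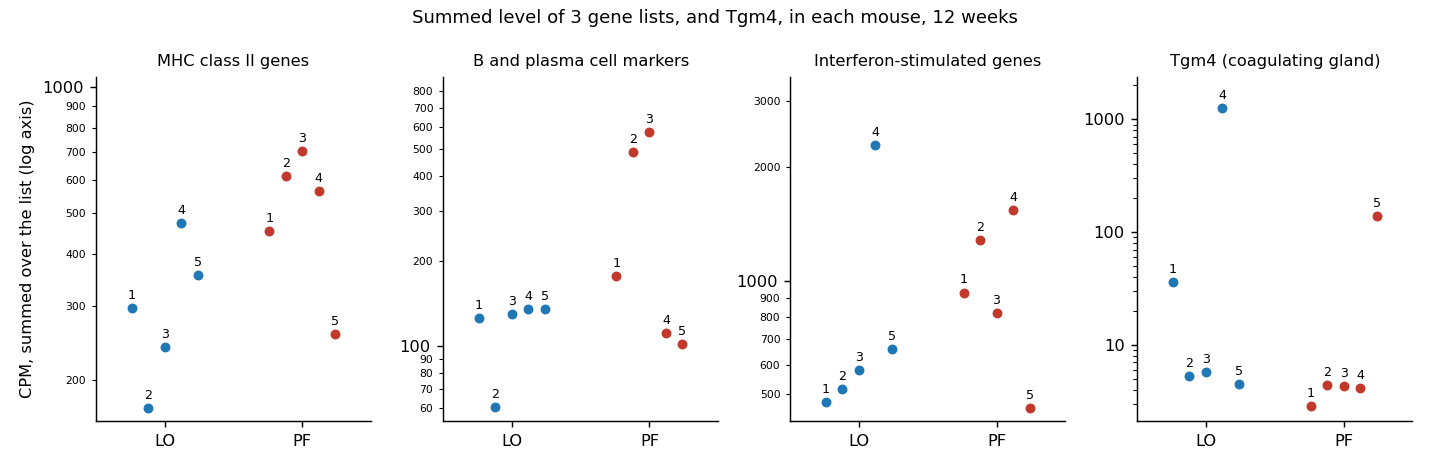
CPM on a log axis in each LO (blue) and PF (red) mouse at 12 weeks, labelled by mouse number, summed over the MHC class II genes, the B and plasma cell markers and the interferon-stimulated genes, and for Tgm4 alone. PF mice 2 and 3 are highest for the B and plasma cell markers, LO mouse 4 is highest for the interferon-stimulated genes and for Tgm4, and PF mouse 5 is the lowest PF mouse in the first 3 panels and the highest in the last.

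Genes of the ER and of the unfolded protein response, the program that expands folding capacity when misfolded proteins build up, differed in direction among themselves. Of 26 members 10 were lower and 16 higher in PF, 2 of the lower and 5 of the higher at an unadjusted p under 0.05 (26.9% of the list, against 9.24% of all genes; median 0.10). The count of 5 fell to 0 without LO mouse 4, PF mouse 2 or PF mouse 3 and rose to 11 without PF mouse 4. Dnajb9, an ER co-chaperone, was the 1 called member, at 90.4, 80.7, 96.8, 87.8 and 103 CPM in LO and 61.4, 64.3, 68.1, 50.5 and 73.5 CPM in PF, with no overlap (-0.53 ± 0.13, SE; DESeq2 adjusted p = 0.0452). Its call was close to the threshold and was lost in 9 of the 10 fits without 1 mouse, the exception being the fit without PF mouse 5. The lumenal chaperone gene Calr was at 1118, 1029, 1059, 984 and 1331 CPM in LO and 1362, 1673, 1810, 1092 and 1218 CPM in PF (0.37 ± 0.15, SE), with PF mice 1 to 3 above every LO mouse, and Dnajb11 (0.30 ± 0.12), a co-chaperone, and Sdf2l1 (0.38 ± 0.17) had positive values too. None of these 3 was called. The RefSeq promoter window of Calr (chr8:84847054-84847113, minus strand, for the bases shown) holds an ER stress element, the motif through which ATF6 acts, 162 bases upstream, in capitals. It was searched on both strands and stood in 0.119% of all windows and in none of the 61 windows of genes called lower, that of Dnajb9 included. The windows of Dnajb11 and Sdf2l1 hold none either. Those of Hspa5 and Creld2, also in the list, hold one, and the sequence is shown for Calr alone.
Calr, ER stress element on the reverse strand: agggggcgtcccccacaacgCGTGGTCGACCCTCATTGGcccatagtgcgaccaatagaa

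The PF and LO mice of 32 weeks, which are other animals, let the same difference be read later. Of the 56 genes called lower, 36 were below 0 again (64.3%, against 51.3% of all genes below 0 at 12 weeks and 48.4% of all genes at 32 weeks), with a median log2 fold change of -0.03, and of the 18 called higher 7 were above 0 (38.9%, against 54.5%), with a median of -0.07. Over all genes 52.9% had the same sign at both times. For the change of the difference between the times, edgeR called none of 16605 genes (percent called 0; smallest adjusted p 0.343; 1294 genes, 7.79%, at an unadjusted p under 0.05) and DESeq2 called 7 of 6512 (0.107%). The unadjusted p of the change was under 0.05 for 33 of the genes called lower and 17 of those called higher. This comparison uses the 12-week contrast that chose the genes, so those 2 counts are a description. At 32 weeks the log2 fold change of Per2 was -0.40 ± 0.21 (SE), that of Per3 -0.11 ± 0.13 and that of Arntl -0.05 ± 0.20, and the median of the clock list was -0.04. H1f0 was at 0.19 ± 0.06, Iglv3 at -2.33 ± 1.04 and Serpina3f at -2.27 ± 0.66. The list medians of MHC class II genes (0.04), macrophage markers (-0.33), interferon-stimulated genes (-0.29), chemokines (-0.18) and collagens (-0.16) were near or below 0 at that time. Those of T cell markers (0.27), mast cell markers (0.35) and B and plasma cell markers (0.13) were above 0. The edgeR test called no gene at 32 weeks (percent called 0; 1394 of 16218 genes, 8.6%, at an unadjusted p under 0.05).

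The 7 genes that DESeq2 called for a change with time had log2 fold changes from -0.53 to 0.01 at 12 weeks and above 0 at 32 weeks. They were Dnajb9, Hspa13, Mgat2, Bet1, Slc33a1, Gpr155 and Bag4, of which Dnajb9 is within the naming rule and the other 6 were chosen after their values were seen. Dnajb9 was at 68.7, 70.8, 50.9, 75.8 and 98 CPM in LO and 86, 87.5, 106, 88.3 and 95.2 CPM in PF at 32 weeks, with log2 fold changes of -0.53 at 12 and 0.35 at 32 weeks (DESeq2 adjusted p of the change = 0.0274). Hspa13, a chaperone of the Hsp70 family, was at 61.3, 64.5, 69.3, 58.2 and 68.5 CPM in LO and 52.4, 51.9, 54.2, 48.9 and 51.1 CPM in PF at 12 weeks, and at 50.2, 60.0, 42.6, 53.3 and 62.5 and 55.5, 63.6, 73.5, 68 and 65.5 CPM at 32 weeks. All 5 PF mice were below every LO mouse at the first time and 4 of 5 were above every LO mouse at the second (DESeq2 adjusted p of the change = 0.0274). Mgat2, a Golgi enzyme of N-glycan synthesis, went from -0.39 to 0.18 on the log2 scale (DESeq2 adjusted p = 0.0452), and Bet1, a SNARE of transport from ER to Golgi, from 0.01 to 0.41 (DESeq2 adjusted p = 0.0274). Slc33a1, the acetyl-CoA transporter of the ER membrane, went from -0.06 to 0.31, Gpr155 from -0.50 to 0.30 and Bag4, a co-chaperone, from -0.25 to 0.12. In edgeR each of the 7 had an adjusted p of 0.343 for the change. Like Dnajb9, Hspa13, Gpr155 and Bag4 were among the genes called lower at 12 weeks, so their 12-week values were part of that choice. Of the 10 fits without 1 mouse at 12 weeks, Hspa13 was called in 3, Gpr155 in 5 and Bag4 in 1. The DESeq2 calls for a change with time were not refitted without 1 mouse.

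**Figure D4:**
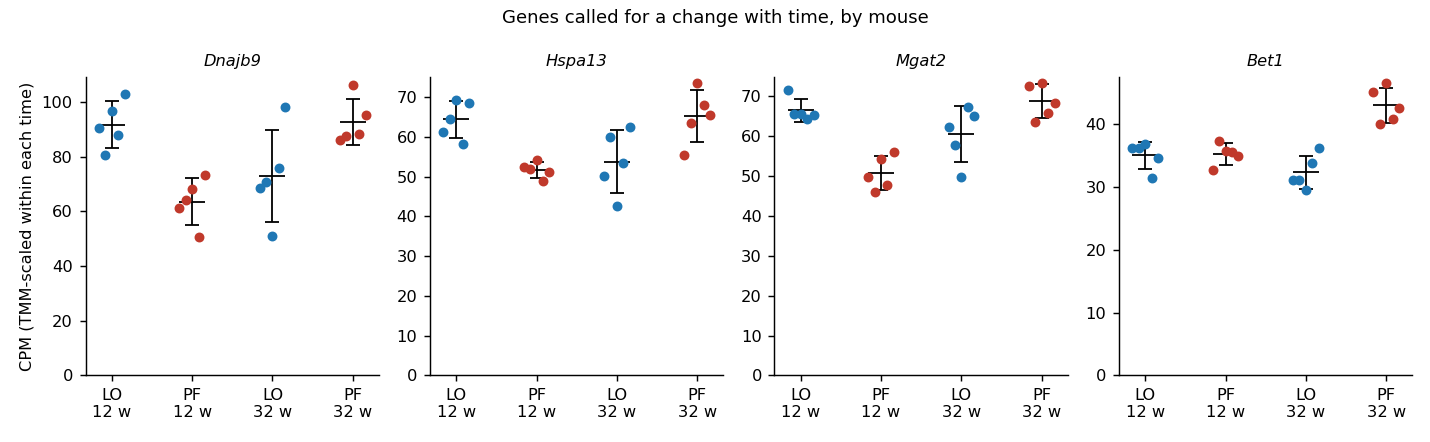
CPM of Dnajb9, Hspa13, Mgat2 and Bet1 in each LO (blue) and PF (red) mouse at 12 and 32 weeks, with mean ± SD of 5 mice; the axis starts at 0 and values are scaled within each time. The PF points of the first 3 genes lie below those of LO at 12 weeks and their PF means lie above the LO means at 32 weeks, while Bet1 is level at 12 weeks and higher in PF at 32 weeks.

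None of the genes in the lists of lipid metabolism was called. Of 36 PPAR targets and genes of fatty acid oxidation 27 were lower in PF, 4 at an unadjusted p under 0.05 (11.1% of the list, against 9.24% of all genes), and none of the 9 higher ones reached that p (median -0.09). Cpt1a, which commits fatty acids to mitochondrial oxidation, was at 129.9, 134, 134, 159 and 175 CPM in LO and 106, 110.4, 103, 135 and 109 CPM in PF, where PF mouse 4 alone overlapped with LO (-0.38 ± 0.11, SE; DESeq2 adjusted p = 0.125). Eci2, an isomerase of unsaturated fatty acid oxidation (-0.44 ± 0.14, SE), and Ppara, the receptor itself (3.29, 3.65, 4.66, 3.47 and 3.59 CPM in LO and 3.48, 2.65, 2.43, 2.59 and 3.08 CPM in PF; -0.39 ± 0.14, SE), were also not called. The median of this list turned to 0.01 without LO mouse 3. Of 9 desaturases and elongases of polyunsaturated fatty acids 3 were lower and 6 higher, 1 at an unadjusted p under 0.05: Elovl6, an elongase of saturated fatty acids, at 2.96, 3.14, 7.43, 3.1 and 3.33 CPM in LO and 4.85, 6.81, 4.01, 3.29 and 19.4 CPM in PF (0.95 ± 0.42, SE; DESeq2 adjusted p = 0.365). Without PF mouse 5 its log2 fold change was 0.25. Fads2, the delta-6 desaturase, was at 13.5, 8.25, 9.79, 12.2 and 12.3 and 10.4, 8.36, 7.72, 7.71 and 9.53 CPM (-0.36 ± 0.18, SE). In fatty acid and triglyceride synthesis 11 of 23 genes were lower and 12 higher, with Acsl1 (-0.32 ± 0.14) and Gpam (-0.20 ± 0.09) lower at an unadjusted p under 0.05 and Acsl5 at 0.17 ± 0.08. Of 24 genes of cholesterol synthesis 19 were higher, none at that p (median 0.09; 11 at that p without LO mouse 2), with the smallest p those of Ebp (0.15 ± 0.09), Fdft1 (0.30 ± 0.17) and Dhcr7 (0.26 ± 0.18). Of 18 genes of eicosanoid synthesis 11 were lower and 7 higher, with Tbxas1, thromboxane synthase, the 1 member at an unadjusted p under 0.05 (0.56 ± 0.25) and Alox5ap at 0.55 ± 0.27 and Alox5 at 0.57 ± 0.35.

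**Figure D5:**
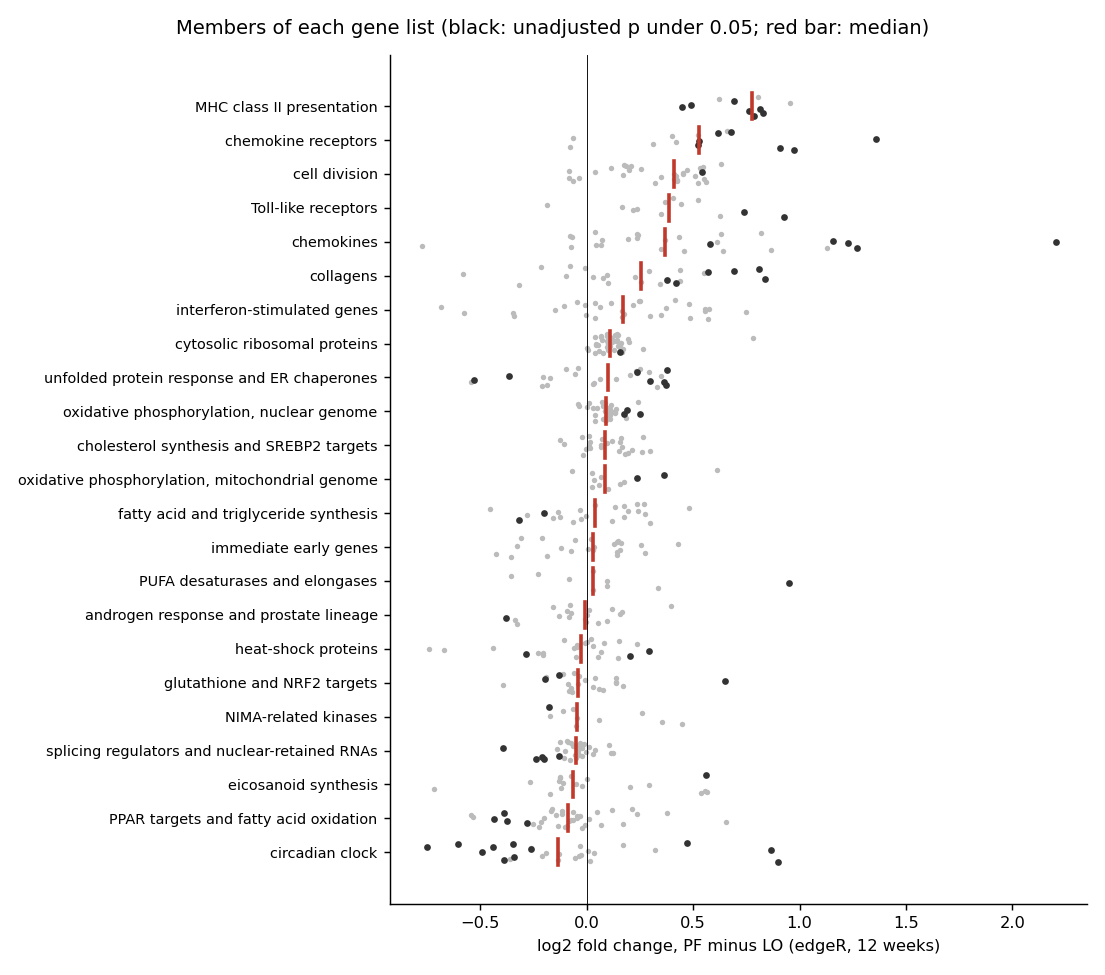
Log2 fold change (PF minus LO, edgeR, 12 weeks) of every tested member of the 23 gene lists; black points have an unadjusted p under 0.05, grey points do not, and the red bar is the list's median. MHC class II genes have the highest median (0.77) and clock genes the lowest (-0.13), with clock members on both sides of 0.

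Lists of ribosomal and mitochondrial genes were mostly slightly higher in PF, with no called gene. Of 45 cytosolic ribosomal protein genes 44 were higher in PF with a median log2 fold change of only 0.11, 1 at an unadjusted p under 0.05, or 2.22% of the list against 9.24% of all genes (Rpl14, 0.16 ± 0.07; Rps20 was at 0.20 ± 0.09 and Rps7 at 0.14 ± 0.08). Of 36 nuclear genes of oxidative phosphorylation 33 were higher (median 0.09; 3 at that p, or 8.33%, namely Ndufb3, 0.19 ± 0.06, Ndufa1, 0.17 ± 0.06, and Cycs, 0.25 ± 0.10), and of the 12 on the mitochondrial genome 11 (median 0.08; mt-Nd3, 0.36 ± 0.10, and mt-Nd1, 0.23 ± 0.10, at that p, or 16.7%; mt-Co3, 0.17 ± 0.10, not). The count at that p rose to 7 ribosomal genes without LO mouse 1 and to 13 nuclear genes of oxidative phosphorylation without PF mouse 1. Scaled by library totals alone, 43, 32 and 10 members of these 3 lists were higher, with medians of 0.08, 0.06 and 0.05. Of 30 cell division genes 26 were higher (median 0.41), 1 at an unadjusted p under 0.05 (3.33%), Mcm3 (0.54 ± 0.25), before Mcm7 (0.26 ± 0.12) and Mcm5 (0.47 ± 0.26). Without LO mouse 2, in which 29 of the 30 genes had the highest level of the LO mice, 29 were higher and 22 were at that p (median 0.77).

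The remaining lists held no called gene. Heat-shock proteins were split 13 lower and 11 higher, with Dnajb1 (-0.28 ± 0.11) lower and Hsp90ab1 (0.29 ± 0.11) and Cryab (0.21 ± 0.09) higher at an unadjusted p under 0.05 (12.5%). Among glutathione and NRF2 targets 14 of 23 were lower, with Nfe2l2, which encodes NRF2 itself (-0.20 ± 0.07), and Sod2 (-0.13 ± 0.06) lower and Hmox1, heme oxygenase (0.65 ± 0.23), higher at that p (13%). Of 19 androgen response and prostate lineage genes 12 were lower, Homer2 (-0.38 ± 0.14) at that p, with Fkbp5 (-0.34 ± 0.16) and Amd1 (-0.33 ± 0.16) next, and the list median was -0.01. Of 23 immediate early genes none was at that p (Klf2, 0.43 ± 0.23; Zfp36, -0.21 ± 0.22; Klf4, 0.16 ± 0.17), and the sign of their median turned under scaling by library totals. Among interferon-stimulated genes the smallest p in the fit of all mice were those of Bst2 (0.57 ± 0.28), Iigp1 (0.75 ± 0.56) and Gbp2 (0.49 ± 0.37).

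The NIMA-related kinases, which act in the cell cycle and in cilia, were 6 lower and 4 higher in PF (median -0.05). The study reported, from the same samples, an enriched network on these kinases in the cell cycle among its genes lower in PF. Its text does not list the genes of that network, which may differ from the kinases listed here. The values below therefore do not test that finding, and their direction is not independent evidence. Nek9 was the 1 member at an unadjusted p under 0.05, at 95.7, 116, 108, 108 and 104 CPM in LO and 86.9, 96.2, 95.3, 94.7 and 96.9 CPM in PF (-0.17 ± 0.06, SE; DESeq2 adjusted p = 0.212). The others ran from -0.17 (Nek5) through -0.11 (Nek7), -0.07 (Nek8), -0.05 (Nek1), -0.04 (Nek4) and 0.06 (Nek3) to 0.26 (Nek6), 0.35 (Nek2) and 0.45 (Nek11). None was called.

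Over the 500 most variable genes the 10 mice did not separate by diet. On the first principal component, with 28.4% of the variance, the PF mice had a mean score of 7.91 (SD 23.9, n = 5) and the LO mice one of -7.91 (SD 11.9, n = 5). The difference of 15.8 was within the spread of the mice (p = 0.238 in the exact permutation test, two-sided, whose 252 arrangements allow no p below 0.00794). PF mice 2 and 3 had the highest scores, 33.2 and 31.2, and PF mouse 4 scored -19.5, lower than 4 of the LO mice.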

How the data were processed

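RNA of the VP (RNA integrity number above 8) was made into stranded mRNA libraries and sequenced as read pairs on an Illumina HiSeq. The authors aligned reads with TopHat2 to GRCm38.p6 and counted them per gene with HTSeq, and the deposited raw counts, without normalization, were used here. Tool versions, annotation and the strand setting of the counting are not given in the sources used here. Between 25.9% and 30.4% of the counts of the 10 mice were not assigned to a gene and were left out. Alignments that were not unique made up 16.1% to 18.7% of the counts, and those on no annotated gene 8.92% to 11.1%. Of 39179 identifiers, 37607 matched a symbol in the GENCODE table for GRCm38.

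The 3 diets of 12 weeks were fitted together in edgeR 4.0.16 (R 4.3.3; filterByExpr, TMM, two-sided quasi-likelihood F test) and, as the study's methods used it, in DESeq2 1.42.0 (Wald test), with Benjamini-Hochberg adjustment and a threshold of 0.05. The adjustment covered all genes tested in edgeR. In DESeq2 it covered the genes left by its independent filtering (set at 0.1), 14379 at 12 weeks and 6512 for the change with time. SEs were derived from the F statistic. Principal components used log2 CPM with a prior count of 2. The change with time was the interaction in a fit of all 30 mice. Both tests were run on simulated data with known changes. The simulated counts took their spread from the expression level alone and held no outlying mice. They thus do not show how the tests behave where single mice stand apart. No 2 libraries of a diet agreed within sampling noise. The p-values of edgeR and DESeq2 set a difference against the spread between the sampled mice, estimated over all mice of the fit.

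The comparison, gene lists and named genes were chosen with earlier results of these data known. Named were the 15 lower and 15 higher genes called by DESeq2 with the smallest edgeR p (predicted genes left out), called members of each of 23 lists plus up to 3 more by edgeR p, and the NIMA-related kinases; some genes that the rule names are not reported here. Alternatives were scaling by RLE or library totals, other filters, only the PF and LO mice, all 6 groups, a robust fit, other DESeq2 settings, a block on mouse number, a threshold of 0.1 and each mouse left out; fits without 2 mice and with TMM factors in DESeq2 were chosen after seeing the data.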

Additional observations from a re-analysis of the deposited data

Results flagged for a closer look

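In 254 groups of 5 mice (the CPM of the named genes and summed marker lists in each diet), the highest or lowest mouse was tested with Dixon's criterion at the 95% level, which chance alone passes in about 1 of 20 groups, and 24 groups passed. LO mouse 4 stood above the other LO mice in Gbp2 (29.62 CPM), Iigp1 (20.06 CPM) and the seminal vesicle and coagulating gland markers (1250 CPM, nearly all of it Tgm4). PF mouse 5 stood above its diet in those markers (138.4 CPM), in Elovl6 (19.42 CPM), and apart in Acsl1 (145.9 CPM), Rps7 (652.6 CPM) and Nfe2l2 (67.76 CPM). PF mouse 4 stood apart in Gbp2 (44.18 CPM), Iigp1 (39.08 CPM), Cpt1a (134.7 CPM), Fam120b (49.17 CPM) and Stk35 (28.88 CPM). LO mouse 3 stood apart in Elovl6 (7.429 CPM) and Ppara (4.656 CPM), LO mouse 2 in Ebp (45.57 CPM) and the B and plasma cell markers (60.58 CPM), LO mouse 1 in Clk4 (74.55 CPM) and LO mouse 5 in Ackr4 (4.433 CPM). PF mouse 1 stood apart in Alkbh5 (94.74 CPM) and Nek9 (86.88 CPM), PF mouse 2 in Msl3l2 (5.732 CPM) and PF mouse 3 in Ackr1 (3.542 CPM) and Iglv3 (10.73 CPM).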

How the results depend on the processing

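The edgeR count of 0 became 1 with scaling by library totals, 2 with all 6 groups in the fit (H1f0 among them), 22 without LO mouse 4 and PF mouse 5, 75 with DESeq2, and 0 to 1 without 1 mouse (1 without LO mouse 5). The DESeq2 count of 75 became 46 with all 6 groups, 148 at an adjusted p under 0.1, 460 without LO mouse 4 and PF mouse 5, 113 without the mice numbered 1, and 18 to 186 without 1 mouse: 18 without PF mouse 2, 19 without PF mouse 3, 36 and 42 without LO mice 3 and 2, 48 without LO mouse 5, 119 and 135 without LO mouse 1 and PF mouse 1, and 186 without PF mouse 5. No called gene changed sign in those fits. The 0 genes that edgeR called for a change with time became 7 with DESeq2. The cause of these shifts was not tested. Some log2 fold changes crossed 0 without 1 mouse: Iigp1 (-0.093 to 1.37), Nek1 (-0.082 to 0.0099), Nek3 (-0.024 to 0.16), Nek8 (-0.18 to 0.049) and Zfp36 (-0.32 to 0.029). The sign of the first principal component was set in each fit so that PF scored higher, so its direction could not change. Its p in the exact permutation test ran from 0.103 to 0.444 without 1 mouse. Of 42 list medians, 28 kept their sign in all alternatives, and that of PPAR targets and fatty acid oxidation did not (0.01 without LO mouse 3).

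The labels number the mice 1 to 5 in each diet. Deviations of same-numbered PF and LO mice correlated at 0.511, -0.066, 0.088, -0.146 and 0.125. Number 1 stood out, with a median of -0.13 against other numbers, and mice 1 and 5 alone correlated best with their own number. Whether a number marks a shared factor was not tested. With the number as a replicate block, edgeR called 0 genes for diet and 0 for the change with time, DESeq2 called 143 genes (63 of the 75 among them), and the first principal component gave p = 0.190 in the exact permutation test. Genes under 1 CPM, such as Iglv3 in LO, rest on few reads.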

Other observations

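Of the 10 adipocyte markers 9 were lower in PF at 12 weeks (median log2 fold change -0.32, none at an unadjusted p under 0.05), and their median at 32 weeks was 1.20. Their summed CPM at 12 weeks ran from 30.3 to 787 in LO and from 168 to 451 in PF, so the diets overlapped. All 5 red blood cell markers were lower at 12 weeks (median -0.32) with a median of 1.37 at 32 weeks. Whether these medians changed with time was not tested.

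The other marker lists held no called gene at 12 weeks. Endothelial markers were higher in 7 of 8 (median 0.31), basal epithelial markers in 6 of 6 (median 0.31), mast cell markers in 6 of 6 (median 0.45), natural killer cell markers in 6 of 6 (median 0.51) and the 3 tested neutrophil markers in all 3 (median 0.47). Skeletal muscle markers were higher in 8 of 10 (median 0.66), nerve and Schwann cell markers in 6 of 8 (median 0.10) and VP secretory genes in 5 of 7 (median 0.10), while urothelial markers were higher in 1 of 3 (median -0.10).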
